A study of Homo sapiens with 9 samples.

Results

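The aldo-keto reductase genes AKR1A1, AKR1B1, AKR1B10, AKR1C1, AKR1C2, AKR1C3 and AKR1C4 were examined on expression arrays of RKO cells, a colorectal cancer cell line. Members were chosen by the gene name of the array probe, and the family was picked from an earlier report of these data because AKR1C1 was among the genes with the largest rise in siCONT + TSA against siCONT. Of the 7 genes, 6 had a probe under their own name, with 10 of the 50599 probes in all. AKR1C2 had none. The values of siCONT + TSA against siCONT, and of siUHRF1 + TSA against the same control arrays, are therefore given as descriptions without a test.

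The study asked whether loss of UHRF1, which maintains DNA methylation, and inhibition of histone deacetylases together restore the expression of silenced genes. RNA from whole cultures was hybridized in 1 colour to 9 arrays. RKO cells received a control siRNA (siCONT) or an siRNA against UHRF1 (siUHRF1) for 72 h and then, for 24 h, either ethanol alone (mock) or the histone deacetylase inhibitor TSA (trichostatin A) at 300 nM, so that all were harvested at 96 h. There were 2 arrays each of siCONT, siUHRF1, siCONT + TSA and siUHRF1 + TSA. Replicate 1 of both siUHRF1 groups carried the siRNA siUHRF1-1 and replicate 2 carried siUHRF1-2, so the arrays of these groups differ in the siRNA. A single further array held RKO cells given 1 µM 5-aza-2′-deoxycytidine (5-aza-dC), an inhibitor of DNA methyltransferases, for 72 h without siRNA. Nothing in the labels says that replicates were separate cultures, so p-values measure only the spread between these arrays. The median absolute log2 difference between replicates was 0.070 in siCONT and 0.076 in siCONT + TSA. It was 0.26 in siUHRF1 and 0.19 in siUHRF1 + TSA, where the siRNA differs as well. The tests pool this spread over groups, so standard errors and intervals include differences between the siRNAs, also where no siUHRF1 array is compared.

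Aldo-keto reductases use NADPH to reduce aldehydes and ketones to alcohols. The AKR1C enzymes act as hydroxysteroid dehydrogenases that inactivate or form progesterone, androgens and prostaglandins, and their genes lie side by side on chromosome 10. AKR1B1, aldose reductase, converts glucose to sorbitol, and AKR1B10 and AKR1B15 are its neighbours on chromosome 7. AKR1B10 reduces retinaldehyde and reactive lipid aldehydes and is known from normal colon, and AKR1A1 is an aldehyde reductase found in most tissues. AKR1B10 and the AKR1C genes are known targets of NRF2, a transcription factor that responds to oxidative stress and is held in check by KEAP1.

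The sequences below show which transcripts the probes can read. The AKR1C1 probe A_24_P152968 (chr10:5005636-5005695, hg19, plus strand) is printed from its first ATG, which is base 2 of its 60 bases, and the capital marks the base at which the promoter window of AKR1C2 differs from it.
AKR1C1 probe A_24_P152968, from base 2: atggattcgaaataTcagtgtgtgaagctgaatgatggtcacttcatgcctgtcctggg
Over the 29 bases that this probe shares with the AKR1C2 window, which runs on past the start site, there was 1 difference, T16C, in which the probe has T and AKR1C2 has C at position 16 counted from the probe's 5′ end. Both windows of AKR1C3 differed from the probe at 3 of 20 bases. The array files list AKR1C2 transcripts among the targets of A_24_P152968 and of the second AKR1C1 probe, A_23_P257971 (chr10:5019910-5019969), so both readings may hold AKR1C2 as well as AKR1C1 and are uncertain between them. The probes of AKR1C3 (A_23_P138541, chr10:5147789-5147848, plus strand) and AKR1B1 (A_23_P258190, chr7:134130061-134132097, minus strand, across an intron) are shown whole because they carried the clearest responses to TSA and to 5-aza-dC.
AKR1C3 probe A_23_P138541: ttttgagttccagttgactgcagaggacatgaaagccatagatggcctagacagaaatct
AKR1B1 probe A_23_P258190: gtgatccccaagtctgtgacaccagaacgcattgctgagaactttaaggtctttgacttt
AKR1B10 probe A_24_P129341, first 30 bases: atcctctcatttggaagactatcccttcga
The AKR1B10 probes A_24_P129341 (chr7:134225799-134225858) and A_23_P93641 (chr7:134225939-134225998) lie on the plus strand next to each other, and 1 AKR1B10 transcript is the only RefSeq accession the files list for them.

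The 250 bases before the RefSeq start sites (build GRCh38.p14) are shown for 3 members with different CpG content, with CpG dinucleotides in capitals. A window was found for 6 of the 7 genes, and AKR1B10 had none in the table used here.
AKR1C1, chr10:4963165-4963414, plus strand: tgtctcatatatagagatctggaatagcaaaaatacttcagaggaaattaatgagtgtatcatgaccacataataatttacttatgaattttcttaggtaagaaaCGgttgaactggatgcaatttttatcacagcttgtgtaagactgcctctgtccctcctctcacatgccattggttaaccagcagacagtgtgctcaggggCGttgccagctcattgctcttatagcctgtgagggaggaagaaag
AKR1C3, chr10:5094164-5094413, plus strand: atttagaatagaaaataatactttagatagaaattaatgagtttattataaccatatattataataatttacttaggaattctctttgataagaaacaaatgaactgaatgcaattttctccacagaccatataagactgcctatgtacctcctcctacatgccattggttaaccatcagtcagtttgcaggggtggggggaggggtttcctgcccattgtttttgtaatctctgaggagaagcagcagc
AKR1B1, chr7:134459101-134459350, minus strand: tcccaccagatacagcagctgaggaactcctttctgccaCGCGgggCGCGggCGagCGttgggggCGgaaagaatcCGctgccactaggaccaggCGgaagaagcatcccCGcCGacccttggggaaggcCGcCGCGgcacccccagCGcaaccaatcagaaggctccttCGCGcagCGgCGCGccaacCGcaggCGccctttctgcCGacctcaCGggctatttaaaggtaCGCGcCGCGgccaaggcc
The AKR1C windows are poor in CpG. AKR1C1 and AKR1C2 each held 2, AKR1C4 held 1 and both windows of AKR1C3 held 0, against a median of 11 over 35116 windows, of which 22.9% held 2 or fewer. The AKR1B1 window printed above held 28, and 15.9% of all windows held as many. A second AKR1B1 window held 12. AKR1A1 held 17. Where they aligned, the windows of AKR1C1 and AKR1C2 were identical at 99.6% of 246 bases, whereas AKR1C1 shared 79.1% and 80.6% of bases with the AKR1C3 windows and 80.8% with AKR1C4.

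Both strands of these windows were searched for short motifs. The antioxidant response element, spelled TGACNNNGC, was in none of the 8 member windows and in 10.9% of all windows. The AP-1 site TGANTCA was in none of them and in 6.57% of all. CCAAT was found once each in AKR1C1, AKR1C2, both AKR1C3 windows and the printed AKR1B1 window, and in 32.0% of all windows. TATAAA was found once in AKR1C4 and in 1 AKR1C3 window, against 10.72% of all. A match is a string of letters and not a shown binding site, and these motifs may lie outside the windows.

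UHRF1 itself was read first as a check of the labels. Its brighter probe gave 644% and 645% of the array's 75th percentile on the siCONT arrays, 128% and 105% on the siUHRF1 arrays, 731% and 728% with siCONT + TSA, and 79.1% and 65.0% with siUHRF1 + TSA. With siUHRF1 its log2 signal fell by 2.47 (adjusted p = 0.00238, limma), and under TSA it fell by 3.35 (adjusted p = 0.000132). The 75th percentile of the signal ran from 245 to 338 on the siRNA arrays and was 822 for 5-aza-dC. The siRNA arrays came from 1 slide and 1 scan, with mock in row 1 and TSA in row 2, siCONT in columns 1 and 2 and siUHRF1 in columns 3 and 4, and the part of these positions in the results was not tested. The array of 5-aza-dC had a slide and a scan of its own. KRT8, KRT18, CDX1 and CDX2 were well above background on all 9 arrays, while CDH1, VIL1 and LGALS4 were on none. Of the 8 markers of other cell types, COL1A1 was above background on all 9 arrays, VWF on 7 and PTPRC on 6, and PECAM1 and COL3A1 on none. Precision is limited by the number of arrays.

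Levels are given as the spot signal in percent of the 75th percentile of its array, which compares 1 probe between arrays but not probes with each other. A probe entered the test when it was well above background on every array of at least 1 group, which 7 of the 10 member probes did. The AKR1C1 probes A_23_P257971 and A_24_P152968 entered only through the TSA groups. The third AKR1C1 probe, A_33_P3365117, and both AKR1C4 probes, A_23_P149926 and A_33_P3272291, were not well above background on any of the 9 arrays. AKR1C4, an enzyme of bile acid synthesis that is known from liver, thus gave no measured level in any condition. In whole cultures fewer cells of a type and less RNA per cell cannot be told apart.

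**Figure D1:**
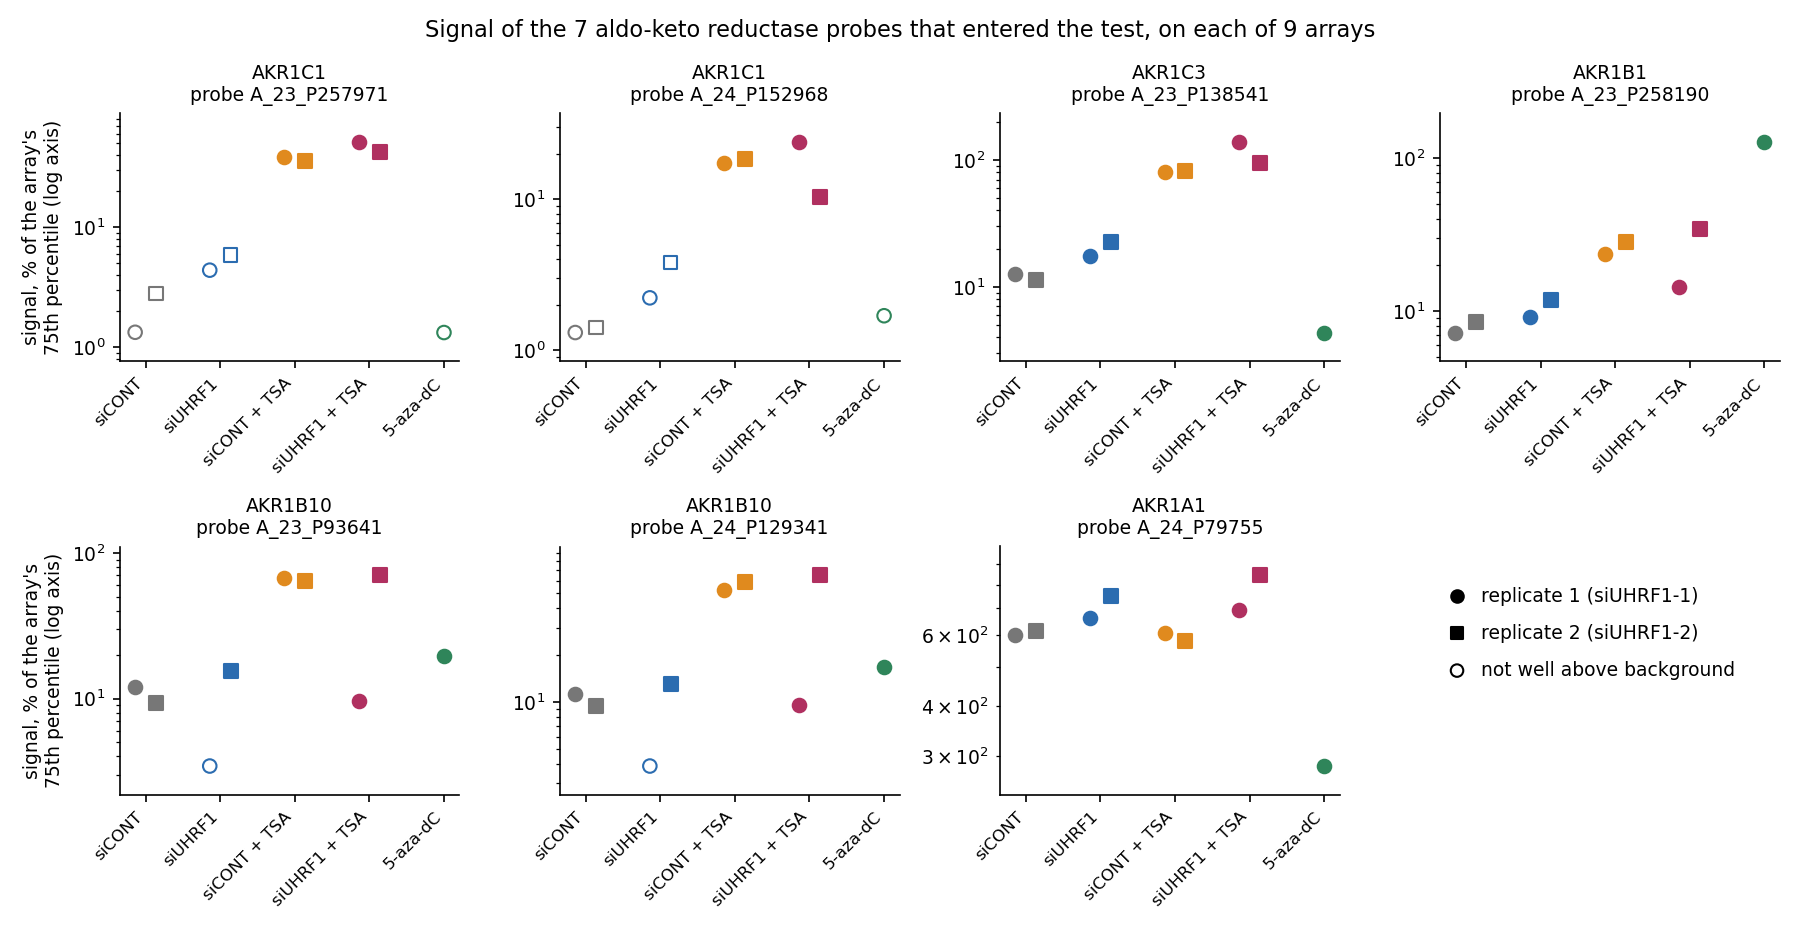
Signal of the 7 member probes that entered the test on each of the 9 arrays, in percent of the array's 75th percentile on a log axis. Circles are replicate 1 (siUHRF1-1 in the siUHRF1 groups), squares replicate 2 (siUHRF1-2), and open symbols were not well above background. AKR1C1 is open on every array without TSA, and AKR1B10 is low on both siUHRF1-1 arrays.

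AKR1C1, which inactivates progesterone, was seen well above background on every TSA array and on no other. Probe A_23_P257971 gave 1.33% and 2.78% with siCONT, 4.37% and 5.85% with siUHRF1, 38.0% and 35.5% with siCONT + TSA, 51.6% and 42.1% with siUHRF1 + TSA, and 1.32% with 5-aza-dC. Every TSA array lay above every other array, and the 5 arrays without TSA were not well above background. With siCONT + TSA the level was at least 7.35-fold higher than with siCONT, and with siUHRF1 + TSA at least 9.31-fold higher than with siCONT. These limits set each dim array to the lowest signal called well above background there, or to the probe's own signal if higher. The plain log2 difference of siCONT + TSA against siCONT was 4.26, and 1.43 after a normexp background correction.

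The second AKR1C1 probe, A_24_P152968, gave 1.31% and 1.42% with siCONT, 2.23% and 3.82% with siUHRF1, 17.3% and 18.5% with siCONT + TSA, 24.1% and 10.3% with siUHRF1 + TSA, and 1.70% with 5-aza-dC. It had the same split between TSA arrays and the rest, and the siUHRF1-2 array with TSA was the lowest of the 4. The level was at least 3.58-fold higher in siCONT + TSA than in siCONT and at least 3.16-fold higher in siUHRF1 + TSA than in siCONT, which became 2.06-fold to 4.83-fold when 1 array was left out. The plain log2 difference of siCONT + TSA against siCONT was 3.71, and 1.12 with normexp.

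AKR1C3, which forms testosterone and prostaglandin F, was well above background on all 9 arrays. It gave 12.7% and 11.3% with siCONT, 17.4% and 22.6% with siUHRF1, 80.9% and 81.3% with siCONT + TSA, 139% and 93.8% with siUHRF1 + TSA, and 4.36% with 5-aza-dC. No group overlapped another, and the order from the lowest was 5-aza-dC, siCONT, siUHRF1, siCONT + TSA and siUHRF1 + TSA. Of the neighbours in that order, 5-aza-dC and siCONT differed past the threshold, whereas siCONT and siUHRF1, and siCONT + TSA and siUHRF1 + TSA, were not called. The step from siUHRF1 to siCONT + TSA was not tested. Described without a test, AKR1C3 was 6.79-fold higher in siCONT + TSA and 9.57-fold higher in siUHRF1 + TSA than in siCONT. With normexp the log2 difference for siCONT + TSA was 1.71 in place of 2.76, and for siUHRF1 + TSA 2.10 in place of 3.26.

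AKR1B1 gave 7.25% and 8.49% with siCONT, 9.18% and 11.9% with siUHRF1, 23.6% and 28.2% with siCONT + TSA, 14.4% and 34.4% with siUHRF1 + TSA, and 128% with 5-aza-dC. It was well above background on all 9 arrays, every TSA array was above every mock array, and the 5-aza-dC array was the highest. The siUHRF1 + TSA arrays lay on either side of the siCONT + TSA arrays. Its fold over siCONT was 3.29 in siCONT + TSA and 2.84 in siUHRF1 + TSA, with no test. The log2 difference behind the second value was 2.13 without the siUHRF1-1 array with TSA and 0.88 without the siUHRF1-2 array. With normexp the log2 difference was 0.99 in place of 1.72 for siCONT + TSA, and 0.66 for siUHRF1 + TSA.

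AKR1B10, which reduces retinaldehyde, was high on 3 of the 4 TSA arrays. Probe A_23_P93641 gave 11.97% and 9.29% with siCONT, 3.44% and 15.5% with siUHRF1, 67.0% and 64.1% with siCONT + TSA, 9.60% and 70.4% with siUHRF1 + TSA, and 19.5% with 5-aza-dC. Probe A_24_P129341 gave 11.2% and 9.38%, 3.88% and 13.1%, 52.3% and 58.6%, 9.64% and 65.3%, and 16.8% on the same arrays. The low array of each siUHRF1 group was the siUHRF1-1 array on both probes, and without TSA it was not well above background. With TSA it was at the level of the siCONT arrays, above the mock array of the same siRNA. The fold of siCONT + TSA over siCONT was 6.21 and 5.40 on these probes, with no test, and the log2 differences of 2.64 and 2.43 became 1.55 and 1.39 with normexp.

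AKR1A1, the broadly expressed aldehyde reductase, was bright on every array. It gave 601% and 613% with siCONT, 661% and 749% with siUHRF1, 608% and 580% with siCONT + TSA, 691% and 845% with siUHRF1 + TSA, and 284% with 5-aza-dC. The siUHRF1 arrays were above the siCONT arrays both with and without TSA, TSA and mock arrays overlapped for siCONT, and the 5-aza-dC array was the lowest. The fold of siCONT + TSA over siCONT was 0.980, with no test.

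The effect of TSA in UHRF1-depleted cells was tested in siUHRF1 + TSA against siUHRF1. These arrays were not in the contrast by which the family was picked. The fit took its spread from all 8 siRNA arrays, which include the arrays of that contrast, so the test is not independent of the choice. AKR1C1 and AKR1C3 were higher with TSA, and 3 of the 7 member probes that entered were called, all higher, where 15.5% of 23703 probes were called (2358 higher and 1310 lower). The AKR1C1 probes among them entered through the TSA groups, in which they are high, so the count is not read against that share. AKR1A1, AKR1B1 and AKR1C3 were the members above background on every array, and of these AKR1C3 alone was called. This is not read against that share either, which covers all probes that entered. Called means that limma's p, adjusted after Benjamini and Hochberg over all probes, was below 0.05. AKR1C1 was at least 9.21-fold higher on A_23_P257971 (adjusted p = 0.00491, and 0.0182 with no filter on dim probes), which became at least 7.97-fold to 10.6-fold when any 1 array of these groups was left out. On A_24_P152968 it was at least 3.51-fold higher (adjusted p = 0.0172), with 2.30-fold to 5.37-fold on leaving out 1 array. That second call was lost without the mock array of siUHRF1-1 (adjusted p = 0.0726), with no filter on dim probes (0.0524), on the compared arrays alone (0.0692) and with normexp, where the log2 difference was 0.60 in place of 2.44 (adjusted p = 0.203). On A_23_P257971 normexp gave 1.33 in place of 3.20 and kept the call, which was lost without both siUHRF1-1 arrays (2.85, adjusted p = 0.0615).

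AKR1C3 was 5.76-fold higher in siUHRF1 + TSA than in siUHRF1 (log2 difference 2.53, standard error 0.22, 95% interval 2.00 to 3.05, adjusted p = 0.00247), on both of 2 siRNAs. AKR1B1 had a log2 difference of 1.09 (95% interval 0.14 to 2.04, adjusted p = 0.113), which ran from 0.46 without the siUHRF1-2 array with TSA (adjusted p = 0.238) to 1.72 without the siUHRF1-1 array with TSA (adjusted p = 0.0239). AKR1B10 had log2 differences of 1.83 and 1.82, with 95% intervals of -0.66 to 4.33 and -0.44 to 4.08 (adjusted p = 0.269 and 0.233). These intervals were the widest among the members, and the AKR1B10 arrays overlapped between the groups, with siUHRF1-1 under TSA below siUHRF1-2 without it. Within each siRNA it was higher with TSA, at least 2.21-fold and 2.22-fold on its probes for siUHRF1-1 and 4.55-fold and 5.00-fold for siUHRF1-2. Both probes were called when both arrays of either siRNA were left out, a choice made after seeing the data (adjusted p = 0.0185 to 0.0239). With the replicate number, which stands for the siRNA in these groups, as a block they were not (adjusted p = 0.202 and 0.159). Leaving out 1 array moved the differences between 0.40 and 3.27 on A_23_P93641. AKR1A1 differed by 0.12 (95% interval -0.19 to 0.43).

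Depletion of UHRF1 without TSA gave no call among the members. In siUHRF1 against siCONT 0 of 7 probes were called and 3 had an unadjusted p below 0.05, where 0.557% of all probes were called. AKR1C3 had a log2 difference of 0.73 (95% interval 0.21 to 1.26, adjusted p = 0.358), with both siUHRF1 arrays above both siCONT arrays. The AKR1C1 differences of 1.39 and 1.09 were between arrays that were all below the background threshold and have no fold. Without siCONT replicate 2, AKR1C1 on A_23_P257971 alone would have been called (adjusted p = 0.0325). AKR1B1 differed by 0.41 (-0.53 to 1.36), AKR1A1 by 0.21 (-0.10 to 0.53), and AKR1B10 by -0.53 on both probes (-3.02 to 1.96 on A_23_P93641). Without both siUHRF1-1 arrays 2 probes were called, and these were AKR1C1 on A_24_P152968 and AKR1C3.

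Under TSA the effect of UHRF1 depletion was read from siUHRF1 + TSA against siCONT + TSA. Of the 7 probes 0 were called and 1, AKR1A1, had an unadjusted p below 0.05, where 3.54% of all probes were called. AKR1A1 differed by 0.36 (95% interval 0.05 to 0.68, adjusted p = 0.222) and AKR1C3 by 0.49 (-0.03 to 1.02, adjusted p = 0.314). AKR1C1 differed by 0.34 (-0.50 to 1.18) and -0.18 (-1.20 to 0.84) on its probes. AKR1B10 differed by -1.33 (-3.83 to 1.16) and -1.14 (-3.40 to 1.12), and AKR1B1 by -0.21 (-1.16 to 0.74). Without both siUHRF1-2 arrays 3 probes were called, both of AKR1B10, at -2.77 and -2.52, and AKR1C3 at 0.78. Without both siUHRF1-1 arrays 2 were called, AKR1A1 at 0.51 and AKR1C1 on A_24_P152968 at -0.79. Each of these fits leaves 1 array in a group, which is assumed to vary like the others.

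How far the effect of UHRF1 depletion differed between TSA and mock was tested too, and this difference contains the contrast by which the family was picked. It had 0 of 7 probes called and 0 with an unadjusted p below 0.05, where 0.38% of all probes were called. The 2 AKR1C1 probes had values of -1.05 (95% interval -2.24 to 0.13) and -1.28 (-2.72 to 0.17), in which the arrays without TSA were below the background threshold. The value was -0.24 (-0.98 to 0.50) for AKR1C3 and -0.63 (-1.97 to 0.71) for AKR1B1. Without both siUHRF1-1 arrays 1 probe, AKR1C1 on A_24_P152968, was called.

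**Figure D2:**
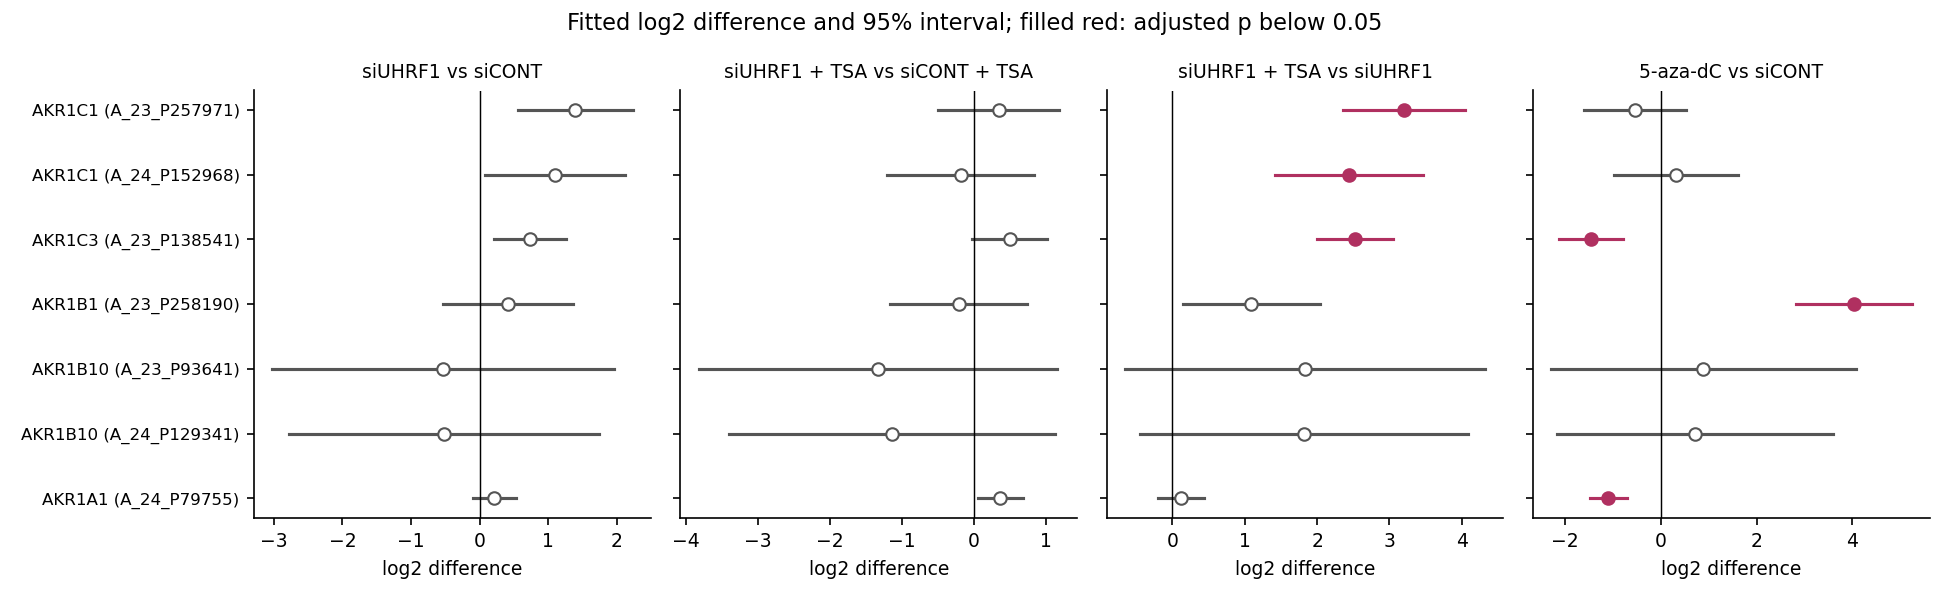
Fitted log2 difference (point) and 95% interval (line) of the 7 member probes in 4 tested comparisons, 1 per panel, with filled red symbols for an adjusted p below 0.05. The calls are 3 in siUHRF1 + TSA against siUHRF1 and 3 in 5-aza-dC against siCONT, and the AKR1B10 intervals are the widest in every panel.

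The siRNAs gave different values for AKR1B10, low with siUHRF1-1 and little above control with siUHRF1-2. Against the mean of both siCONT arrays, siUHRF1-1 gave log2 differences of -1.62 and -1.40 on its probes and siUHRF1-2 gave 0.55 and 0.35. The siUHRF1-1 array was not well above background there, so siCONT was at least 2.43-fold and 2.36-fold higher. Under TSA, siUHRF1-1 gave -2.77 and -2.52 against siCONT + TSA, and siUHRF1-2 gave 0.10 and 0.24. On both probes siUHRF1-1 was below both control arrays and siUHRF1-2 above both, with and without TSA. A_23_P93641 was at least 3.57-fold higher with siUHRF1-2 than with siUHRF1-1 in mock and 7.33-fold higher with TSA. Among 23703 probes, 0.0675% differed as much between the siRNAs with TSA and 0.181% in mock. On A_24_P129341 the shares were 0.0802% with TSA and 0.435% in mock. The mock shares rest on a siUHRF1-1 array that was not well above background. The median absolute log2 difference between the siRNAs with TSA was 0.19. There is 1 array of each siRNA in a condition, so the difference in AKR1B10 has no test.

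UHRF1 was lowered by both siRNAs, to 128% with siUHRF1-1 and 105% with siUHRF1-2 in mock and to 79.1% and 65.0% with TSA. The other members differed less between the siRNAs. AKR1B1 was 2.38-fold higher with siUHRF1-2 under TSA, a difference reached by 1.3% of all probes, and 1.30-fold higher in mock. AKR1C1 on A_24_P152968 ran the other way under TSA, at 0.43 of its siUHRF1-1 level with siUHRF1-2 (1.37% of probes differed as much). AKR1C3 stood at 0.67 of its siUHRF1-1 level with siUHRF1-2 under TSA and at 1.30 in mock, a size of difference found in 11.3% and 33.1% of probes.

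**Figure D3:**
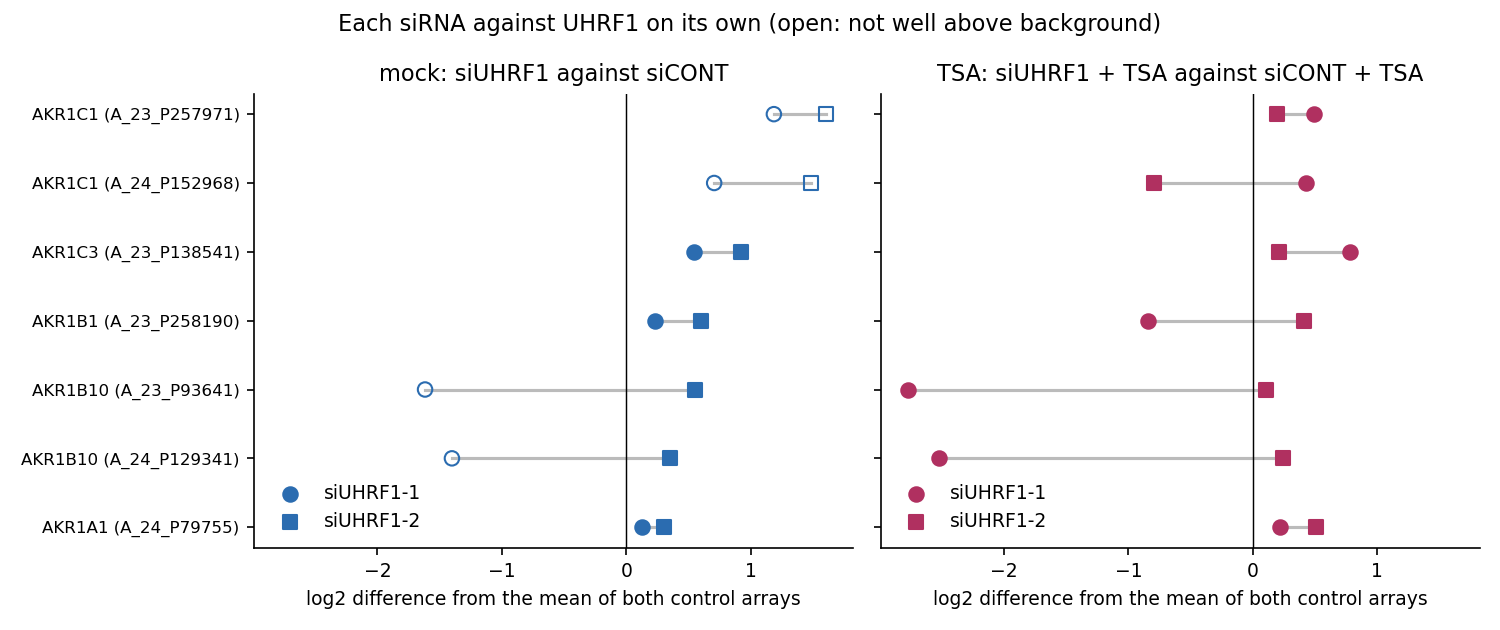
Log2 difference of each siUHRF1 array from the mean of both control arrays in mock (left) and with TSA (right), for 7 member probes, with circles for siUHRF1-1, squares for siUHRF1-2 and open symbols not well above background. AKR1B10 lies at -1.62 and -1.40 in mock and at -2.77 and -2.52 with TSA for siUHRF1-1, and above 0 for siUHRF1-2.

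The genes beside the members on the chromosome were read because of the AKR1B10 values and were chosen after those were seen. AKR1B15, next to AKR1B10, gave 7.63% and 6.50% with siCONT, 1.78% and 7.43% with siUHRF1, 30.5% and 29.4% with siCONT + TSA, 1.79% and 36.0% with siUHRF1 + TSA, and 8.34% with 5-aza-dC. It was not well above background on either siUHRF1-1 array or on siCONT replicate 2, and siUHRF1-2 was at least 1.71-fold higher than siUHRF1-1 in mock and at least 7.05-fold higher with TSA. The files list AKR1B10 among the targets of the AKR1B15 probe, so the reading is uncertain between them. BPGM, the next gene, differed between the siRNAs by 0.49 and 0.55 in the same direction, and SLC35B4 on the other side of AKR1B1 by 0.41 and 0.26.

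On chromosome 10 the array holds a probe for AKR1C8, named AKR1CL1 in the files, which lies between AKR1C3 and AKR1C4. It gave 1.95% and 1.07% with siCONT, 1.52% and 1.92% with siUHRF1, 14.3% and 13.6% with siCONT + TSA, 20.6% and 14.9% with siUHRF1 + TSA, and 1.81% with 5-aza-dC. As for AKR1C1, the TSA arrays were well above background and no other array was. It was at least 3.90-fold higher in siUHRF1 + TSA than in siUHRF1 (adjusted p = 0.00294), and it entered the test through the TSA groups. AKR1E2, before the cluster, and TUBAL3, after it, were not well above background on any of the 8 siRNA arrays.

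**Figure D4:**
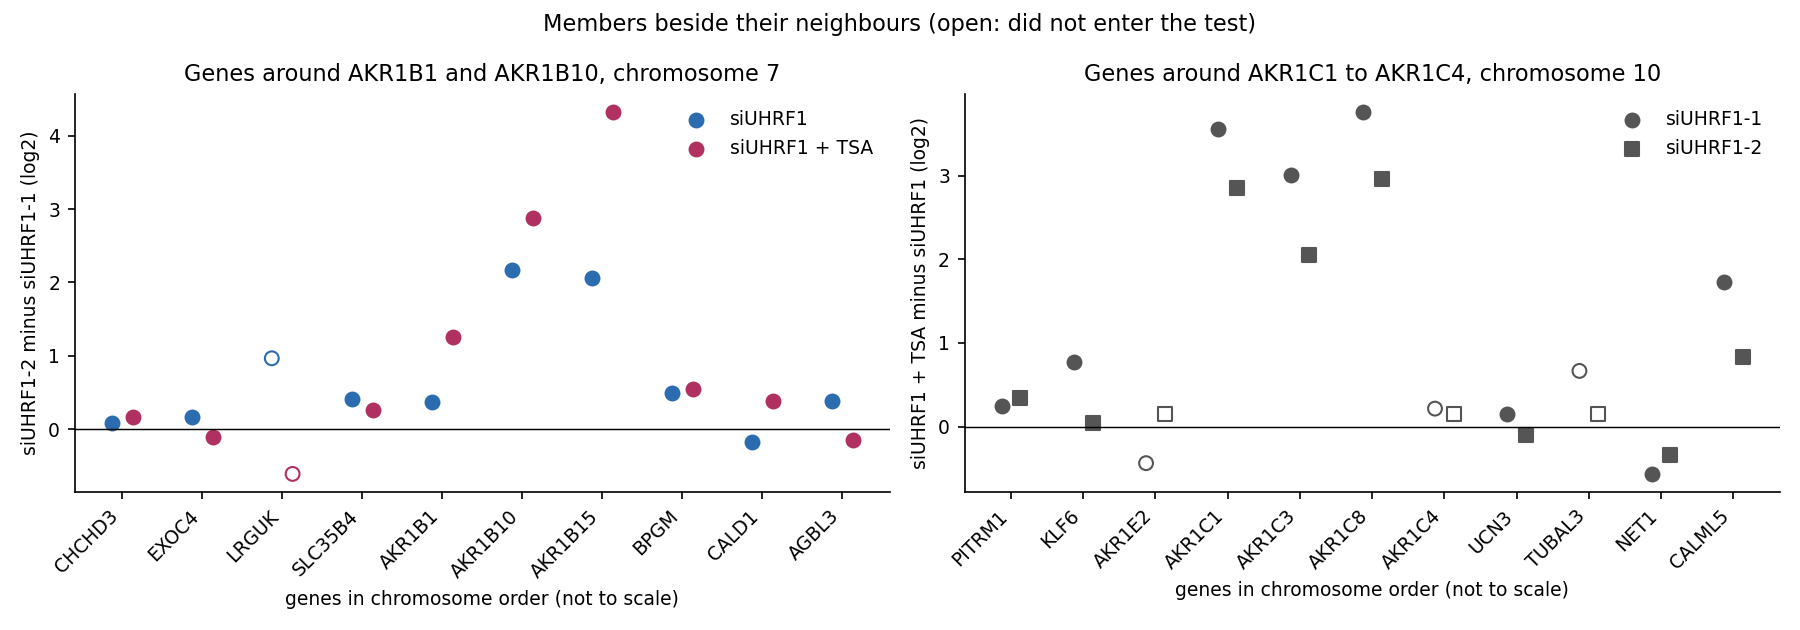
Log2 differences of members and their neighbours in chromosome order, with siUHRF1-2 minus siUHRF1-1 on chromosome 7 (left, blue for mock and red for TSA) and siUHRF1 + TSA minus siUHRF1 for each siRNA on chromosome 10 (right), and open symbols for probes that did not enter the test. AKR1B10 and AKR1B15 stand above their neighbours on the left, and AKR1C1, AKR1C3 and AKR1C8 on the right. Points are plain differences. Those of AKR1B15, of AKR1B10 in mock, and of AKR1C1 and AKR1C8 include arrays not well above background, so their sizes are not exact. The AKR1B15 probe may also read AKR1B10.

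5-aza-dC against siCONT set a single array against the siCONT arrays. The drug, the slide, the scan and the absence of transfection cannot be told apart in it, and the siCONT arrays are shared with other comparisons. Of 7 member probes 3 were called, 1 higher and 2 lower, where 48.9% of 27142 probes were called. AKR1B1 was 16.4-fold higher (log2 difference 4.03, standard error 0.49, adjusted p = 0.00143), AKR1C3 was lower at 0.365 of the siCONT level (log2 difference -1.45, adjusted p = 0.00686), and AKR1A1 was lower at 0.468 (log2 difference -1.10, adjusted p = 0.0028). These 3 were called with the same sign under all 20 settings in which they were fitted, with log2 differences of 2.16 to 4.15 for AKR1B1, -3.33 to -1.15 for AKR1C3 and -2.97 to -0.96 for AKR1A1.

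AKR1C1 was not well above background with 5-aza-dC on any probe, and AKR1C4 was not either. AKR1B10 had log2 differences of 0.89 and 0.72 against siCONT (95% intervals -2.29 to 4.07 and -2.17 to 3.60), and both were below 0 with normexp and with spike-in scaling. Without either pair of same-siRNA arrays, both AKR1B10 probes were called, with standard errors of 0.19 and 0.15 in place of 1.29 and 1.18. The AKR1B1 windows, with 28 and 12 CpG, belonged to the member that was higher with 5-aza-dC. The AKR1C windows held 0 to 2 CpG. Of these genes AKR1C3 was lower, AKR1C1 and AKR1C4 were not detected with 5-aza-dC or with siCONT, and AKR1C2 had no probe under its own name. AKR1A1, with 17 CpG, was lower. With 3 called members this is a description, and a link between CpG content and the drug was not tested.

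Related genes were taken from 5 lists. Of 9 other aldo-keto reductase genes 6 entered the siRNA comparisons, and none was called in any of the 4. Their median log2 difference in siUHRF1 + TSA against siUHRF1 was 0.31, beside 0.071 over all probes. Of all probes, 0.38% to 15.5% were called in these 4 comparisons. With 5-aza-dC, AKR1E2 was at least 1.29-fold higher, and it entered through that array alone, and KCNAB2, a potassium channel subunit of the same superfamily, was lower by a log2 difference of -2.07 (adjusted p = 0.000589).

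Of 27 NRF2 target genes 23 entered. In siUHRF1 + TSA against siUHRF1 3 were called higher and 2 lower, with a median of 0.23. Over all probes 15.5% were called there and the median was 0.071, which also stand beside the other lists in that comparison. Among the targets called higher, PIR rose by 0.85 (adjusted p = 0.0346) and PRDX1, a peroxiredoxin, by 0.64 (adjusted p = 0.0186). SLC7A11, the cystine transporter, had a log2 difference of -1.85 (adjusted p = 0.00143) and TRIM16L of -0.78 (adjusted p = 0.00929). None of the 23 was called in siUHRF1 against siCONT, where 0.557% of all probes were called. ABCC2, an export pump, was at least 1.17-fold higher in siUHRF1 + TSA than in siCONT + TSA (adjusted p = 0.00989). Its log2 differences were -0.59 in mock and 1.35 with TSA, and they differed by 1.94 (adjusted p = 0.0399). Both siCONT + TSA arrays and the siUHRF1-1 mock array were not well above background, so these sizes are not exact. With 5-aza-dC 4 of the 25 that entered were called higher and 4 lower, where 48.9% of all probes were called, a share that also stands beside the counts of the other lists with 5-aza-dC. ME1, which supplies NADPH, was at least 3.43-fold higher, and it entered through the 5-aza-dC array alone. SLC7A11 was at -2.58.

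Among 9 NRF2 pathway regulators 8 entered. NFE2L2, the gene of NRF2 itself, did not enter any comparison on its brightest probe, so its level was not tested. KEAP1 (0.54, adjusted p = 0.0142) and CUL3 (0.40, adjusted p = 0.0443), parts of the ligase that degrades NRF2, were higher in siUHRF1 + TSA than in siUHRF1. The median of that list was 0.076. With 5-aza-dC, KEAP1 (0.89) and MAFG (0.92) were higher and SQSTM1 was lower (-0.54).

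Of 19 other carbonyl-reducing and aldehyde-oxidising enzymes 14 entered the siRNA comparisons. DHRS2, a short-chain dehydrogenase that reduces dicarbonyls, was the one called in every tested comparison. It gave 10.4% and 9.03% with siCONT, 22.4% and 19.0% with siUHRF1, 61.5% and 65.9% with siCONT + TSA, 387% and 357% with siUHRF1 + TSA, and 406% with 5-aza-dC. Its groups did not overlap, and its log2 difference was 1.09 in siUHRF1 against siCONT (adjusted p = 0.0285), 2.55 under TSA (adjusted p = 0.000291) and 1.46 for the difference between these effects (adjusted p = 0.0462). In siUHRF1 + TSA against siUHRF1 CBR1 was also higher (0.70), and DHRS3 (-1.04) and DHRS4 (-0.55) were lower. RDH11 was lower in siUHRF1 + TSA than in siCONT + TSA (-0.65). Of the 16 that entered with 5-aza-dC, 5 were called higher and 7 lower. Among those higher was ALDH1A3, a retinaldehyde dehydrogenase, at least 12.6-fold. ALDH1A3 entered through the 5-aza-dC array alone.

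Of 24 other steroid, prostaglandin and polyol enzymes 17 entered the siRNA comparisons, and none was called higher in siUHRF1 + TSA than in siUHRF1. HSD17B8 (-0.91), HSD17B14 (-0.53) and PTGES2 (-0.48) were lower, and the median was -0.14. Of the 18 that entered with 5-aza-dC, 2 were called higher and 4 lower, with PTGES3 at 1.66 and SRD5A3 at -2.02. HSD3B2, among those higher, entered through the 5-aza-dC array alone.

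**Figure D5:**
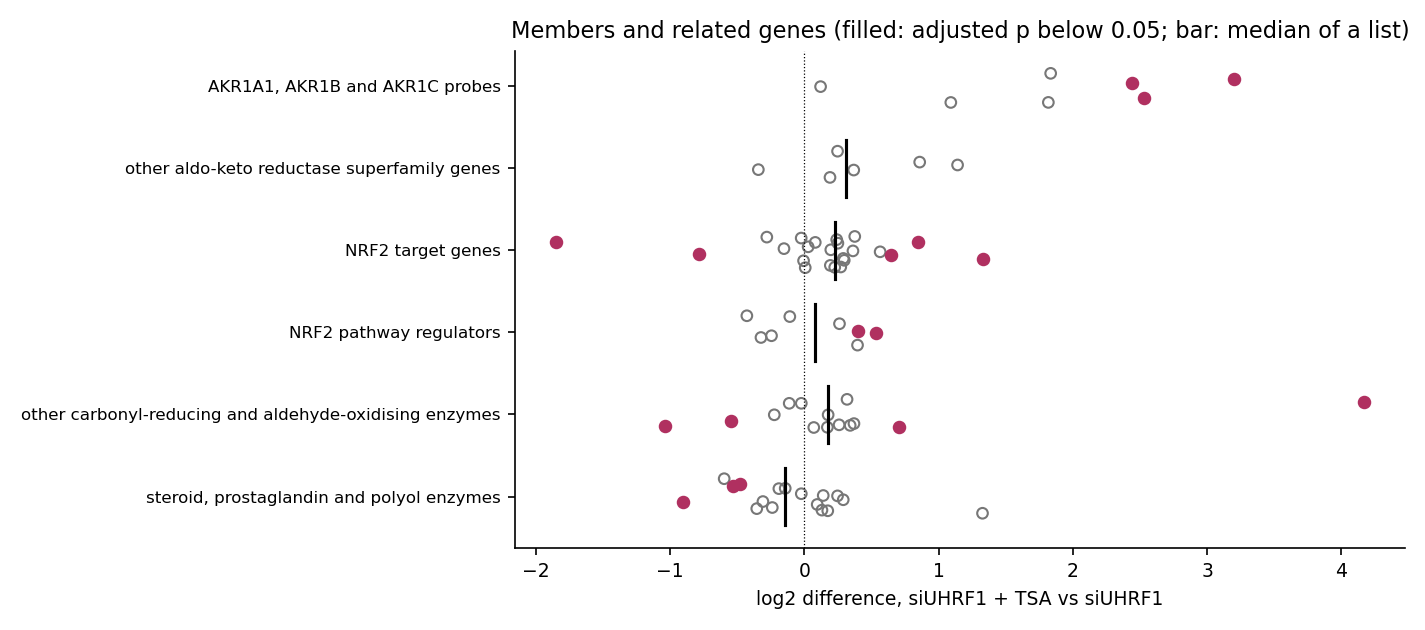
Log2 difference in siUHRF1 + TSA against siUHRF1 for the 7 member probes that entered (top row) and the genes of 5 related lists, 1 point per probe or gene, with filled points called at an adjusted p below 0.05 and bars at list medians. The member points run from 0.12 to 3.20 and the list medians from -0.14 to 0.31.

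The pattern of AKR1C1 on A_23_P257971 over the 8 siRNA arrays was set against that of every probe that entered. Among the members Pearson's r was 0.979 for AKR1C3, 0.882 for AKR1B1, 0.642 for AKR1B10 on A_23_P93641 and 0.284 for AKR1A1. These points share their arrays and their treatment, and r is a description over 8 arrays. AKR1C1 was not well above background on the siCONT and siUHRF1 arrays, so r mainly sets TSA arrays against mock arrays. The arrays include those of the contrast by which the family was picked. Outside the family the most alike genes were RAE1, IZUMO4, PSMD7, PINK1 and BAG6, with r of 0.990 to 0.992. For AKR1B10 they were FAM117B, YEATS2, UBE2Z, HOXA6 and BPGM, with r of 0.988 to 0.992, of which BPGM is its neighbour on chromosome 7.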

How the data were processed

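The authors extracted the arrays (SurePrint G3 Human GE v2) with Agilent Feature Extraction 10.7.3.1, and the deposited intensity of each spot is its background-subtracted and detrended signal, with dim spots at a surrogate value and no scaling between arrays. The deposited flags mark spots well above background, saturated or outlying. The paper's methods name GeneSpring GX and t-tests. A deposited value table of these signals served as an alternative.

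The members and lists were chosen with earlier results of these data known. From each log2 signal the log2 of that array's 75th percentile was subtracted, spots flagged as outliers were left out, and spots of a probe were averaged. limma 3.58.1 in R 4.3.3 (lmFit, eBayes) was fitted to 8 siRNA arrays, with 23703 probes, or to all 9 arrays for 5-aza-dC, with 27142 probes, where its spread was taken from the other groups. Benjamini-Hochberg adjustment ran over all probes, and 0.05 was the threshold. The procedure was tested on simulated data. Named from each list were up to 3 called genes in each direction per comparison, by their brightest probe, and 5 genes most alike to AKR1C1 and AKR1B10. Of the probes, 28174 were named through RefSeq (GRCh38.p14). Probe coordinates are those of the files (hg19). Promoter windows were aligned with Biopython. Alternatives were normexp background correction (offset 50), spike-in scaling, quantile normalization, centring on always-detected probes, outlier spots kept, the value table, no or a stricter filter, a trended and robust prior, a replicate block, the compared arrays alone, the methods' t-test, each array left out, and both arrays of an siRNA left out. The values of 1 gene that the rule names, and the sequence of 1 probe, are not reported here.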

Additional observations from a re-analysis of the deposited data

Results flagged for a closer look

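AKR1B10 differed between the siRNAs against UHRF1, on both of its probes and both with and without TSA. It was low with siUHRF1-1, and with siUHRF1-2 it was 0.10 to 0.55 above the control mean in log2. Averaged over mock and TSA, the log2 difference from control was 2.52 higher with siUHRF1-2 than with siUHRF1-1 on A_23_P93641 and 2.26 higher on A_24_P129341. Each siUHRF1-1 array lay below both of its control arrays and each siUHRF1-2 array above both. The difference was not tested, because each siRNA has 1 array in a condition. Without TSA the siUHRF1-1 array was not well above background on either probe, so both averages hold an undetected signal. With TSA alone, where all arrays were detected, the differences were 2.87 and 2.76.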

How the results depend on the processing

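The limits are 2 arrays a group, 1 for 5-aza-dC, and dim signals, since AKR1C1 has no measured level without TSA. In siUHRF1 + TSA against siUHRF1 the 3 called member probes became 1 when only probes above background on every array were kept and 0 by the methods' t-test after adjustment, and 2 to 4 when any 1 array was left out. The first drops the AKR1C1 probes by construction. In siUHRF1 against siCONT leaving out 1 array gave 0 to 1, and 0 in siUHRF1 + TSA against siCONT + TSA and in the difference of effects. For 5-aza-dC the 3 became 5 with normexp, spike-in scaling or no filter. With normexp and spike-in scaling the added calls were AKR1C1 on A_23_P257971 and A_24_P152968, not well above background on any array compared. With no filter the added calls were among the member probes that had not entered, which were not well above background on any array. Chosen after seeing the data, leaving out both siUHRF1-1 arrays gave 2, 2, 5, 1 and 5 called probes in siUHRF1 against siCONT, siUHRF1 + TSA against siCONT + TSA, siUHRF1 + TSA against siUHRF1, the difference of effects and 5-aza-dC, and leaving out both siUHRF1-2 arrays gave 3 in siUHRF1 + TSA against siCONT + TSA and 5 in siUHRF1 + TSA against siUHRF1 and in 5-aza-dC. Each depleted group then has 1 array, assumed to vary like the others, and the cause was not tested. The sign turned for AKR1C1 A_24_P152968 with 5-aza-dC (-0.89 with normexp, -1.56 with spike-in scaling, against 0.31), AKR1A1 in siCONT + TSA against siCONT (-0.064 to 0.0045 without 1 of the siCONT + TSA replicates, against -0.03), and AKR1B10 in siUHRF1 + TSA against siCONT (-0.14 to 2.74 and -0.088 to 2.67 when 1 array was left out, the lowest without siUHRF1 + TSA replicate 2 and also without both siUHRF1-2 arrays, against 1.30 and 1.29). Among other uncalled values it turned for AKR1B10 with 5-aza-dC (to -0.99 and -1.16), in siUHRF1 against siCONT (to 0.55 and 0.35), in siUHRF1 + TSA against siCONT + TSA (to 0.10 and 0.24) and in the difference of effects (to 0.64 and 0.76), for AKR1B1 (to 0.41) and both AKR1C1 probes (to -0.052 and 0.43) in siUHRF1 + TSA against siCONT + TSA, for AKR1A1 in siUHRF1 + TSA against siUHRF1 (to -0.067) and for AKR1C3 in the difference of effects (to 0.24). Spike-in scaling moved the median of all probes to -1.86 for 5-aza-dC and to -0.12 for siUHRF1 + TSA against siUHRF1, and normexp moved it to -0.29 for 5-aza-dC. The replicate numbers stand for the siRNA in the siUHRF1 groups and are only numbers in the others. Deviations of replicate 1 correlated at 0.47 between the siUHRF1 groups, which share an siRNA, and at -0.047 to 0.080 otherwise. A replicate block left 3 calls in siUHRF1 + TSA against siUHRF1 and 0 in the other siRNA comparisons. A block for slide or scan, and the block, the methods' t-test and the compared arrays alone for 5-aza-dC, were not run, since its single array leaves no spread of its own. The t-test and the compared arrays alone were not run for the difference of effects.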
